A study of Canis lupus familiaris with 222 samples.

Results

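Among the canine mammary tumors (CMTs) of this series, 8 tumors of rare histology were compared with 63 simple carcinomas. They comprised osteosarcomas (3 tumors), carcinosarcomas (3), a fibrosarcoma (1) and a spindle cell carcinoma (1), out of 158 tumors and 222 RNA-seq libraries in all. They are the tumors with RNA-seq data that the clinical table of the study lists as Other histologies. The sample labels give each of the 8 the same diagnosis. Of the 63 tumors with RNA-seq data that this table lists as simple carcinomas, the labels name 59 so and call 4 simple adenoma. The whole cohort of the study holds further tumors of both kinds. All tumors arose spontaneously in female dogs and were removed by surgery, 1 library was made per tumor, and for 64 dogs adjacent normal mammary tissue was sequenced as well. Each value is an FPKM, the number of fragments scaled to the length of the transcript and to the mapped fragments of the library.

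Canine mammary tumors are sorted by the cells they contain. A simple carcinoma consists of malignant cells of the luminal epithelium, whereas an osteosarcoma consists of malignant mesenchymal cells that lay down bone matrix, and a fibrosarcoma of spindle-shaped cells that resemble fibroblasts and make collagen. A carcinosarcoma holds a malignant epithelial and a malignant mesenchymal component side by side, and a spindle cell carcinoma is a carcinoma of elongated cells. The label of the spindle cell carcinoma studied here adds malignant myoepithelioma in parentheses.

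The osteosarcomas came from a Maltese of 16 years (CMT-009), a Miniature Pinscher of 8 years (CMT-290) and a Maltese of 14 years (CMT-332). The carcinosarcomas came from a Pomeranian of 16 years (CMT-231), a Yorkshire Terrier of 17 years (CMT-340) and a Schnauzer of 10 years (CMT-577). The fibrosarcoma (CMT-112) and the spindle cell carcinoma (CMT-129) came from a Maltese and a Shih Tzu, each of 14 years. Of the 8 tumors, 5 were of grade 3, 2 of grade 2 and 1, the fibrosarcoma, of grade 1. Lymphatic vessel invasion was present in 2 of them, both carcinosarcomas, and 6 of the 8 dogs were intact. The 63 dogs with simple carcinomas belonged to 14 breeds and were 2 to 19 years old (median 13, n = 58 with a stated age), and 20 of their tumors were of grade 3, 13 of grade 2 and 26 of grade 1. Grade 3 made up 62.5% of the rare tumors and 33.9% of the 59 graded simple carcinomas (Fisher's exact test, two-sided, p = 0.138, adjusted p = 0.277 over 6 such comparisons). Of the rare tumors, 7 belonged to the NMF3 expression cluster of the study and the remaining one, the carcinosarcoma CMT-577, to NMF2, while 4 of the 63 simple carcinomas belonged to NMF3.

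The rare tumors had 59054991 to 70820657 mapped reads, and the simple carcinomas 52159703 to 147634076. Of their reads, 91.3 to 93.2% mapped, against 66.6 to 93.1% in the simple carcinomas (permutation p = 0.0247, two-sided, adjusted p = 0.148). The table lists 24580 Ensembl gene identifiers without gene names, and no source used here pairs them with names, so genes are given by identifier, their functions cannot be stated, and the diagnoses could not be checked against marker genes of bone, epithelium or connective tissue. The read number behind each value is unknown. A value of exactly 0 need not mean absence: 5 identifiers with a median of at least 8000 FPKM over all libraries were listed at 0 in 1 to 29 libraries each.

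The comparison of all 8 rare tumors with the 63 simple carcinomas asked how far these histologies share a transcriptome that sets them apart from the common carcinoma. In the rare tumors 439 genes were higher and 493 were lower. This was 6.42% of the 14519 genes tested (3.02% higher and 3.4% lower). A gene was called when limma on log2(FPKM + 1) gave an adjusted p below 0.05 and the log2 difference reached 1 or more in either direction. In bulk tissue, fewer cells of a type and less RNA per cell cannot be told apart. The median log2 difference was 1.43 among the genes called higher and -1.46 among those called lower, against -0.08 over all genes tested. A log2 difference of at least 2 was reached by 91 of the higher and 104 of the lower genes, and one of at least 3 by 20 and 22. In the rare tumors 388 of the 439 higher genes had a mean of at least 5 FPKM, and in the simple carcinomas 434 of the 493 lower genes had one. Over both groups together, 9039 of the 14519 genes tested had such a mean. The group where a gene is higher was used for the called genes, and few tumors can carry such a mean. At least 1 rare tumor was under 1 FPKM for 163 of the higher and 348 of the lower genes. With the histology of the labels (59 simple carcinomas) 407 genes were higher and 464 lower, and with the 20 simple carcinomas of grade 3 alone 360 were higher and 303 lower.

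The number of calls moved in opposite ways with the osteosarcomas and the carcinosarcomas. Without the 3 osteosarcomas 99 genes were called higher and 73 lower, 172 in all, and 161 of these were among the 932 genes called with all 8 tumors. Without the 3 carcinosarcomas, which also leaves 5 rare tumors, 610 genes were called higher and 878 lower, 1488 in all; this setting was chosen after seeing the data. Leaving out single tumors gave between 637 calls (without CMT-290) and 1248 calls (without the carcinosarcoma CMT-577).

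The rare tumors were also less alike than the simple carcinomas on these genes. The standard deviation was larger in the rare tumors for 81.5% of the genes called higher and 68.8% of those called lower, against 32.3% of all genes tested. These genes were called on the same tumors, and a difference carried by part of the rare tumors widens their spread. The larger shares are therefore a description of the called genes. No gene separated all 8 rare tumors from all 63 simple carcinomas, in either direction (0% of the genes tested). Of the 439 higher genes, 117 lay above the simple carcinoma median in all 8 tumors and 220 in 7 of 8, and in 177 of these 220 the exception was CMT-577. Of the 493 lower genes, 189 lay below that median in all 8 and 219 in 7 of 8. The exception was CMT-577 in 130 of these 219 genes and CMT-231, another carcinosarcoma, in 58. Because the genes were called on these tumors, values beyond the median in most of them follow in part from the selection. Such counts were not made over all genes tested, so they too only describe the called genes.

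The largest increase among genes with a mean of at least 5 FPKM was that of ENSCAFG00000009558. It had 1554 FPKM in CMT-290 and 896 in CMT-332 among the osteosarcomas, but 0.0428 in CMT-009. In the carcinosarcomas it had 596 FPKM in CMT-231, 1648 in CMT-340 and 0.499 in CMT-577, and it had 0.116 in the fibrosarcoma and 12.0 in the spindle cell carcinoma. The simple carcinomas ranged from 0 to 131 FPKM with a median of 0.246. Thus 4 of the rare tumors lay above every simple carcinoma, and the osteosarcoma CMT-009 and the fibrosarcoma lay below the simple carcinoma median. Single tumors outside the comparison were also high, with up to 896 FPKM among 36 complex carcinomas (median 2.29) and 1579 among 8 benign mixed tumors (median 1.4). The log2 difference of ENSCAFG00000009558 reached 4.71, with a standard error of 0.744 (adjusted p = 3.09e-06). The fit pools the spread of a gene over both groups, 8 rare tumors and 63 simple carcinomas. This standard error is therefore dominated by the simple carcinomas and does not measure the spread among the rare tumors. The same holds for the genes below.

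The second of the higher genes, ENSCAFG00000003369, was raised more evenly. It had 48.7, 158 and 497 FPKM in the osteosarcomas CMT-009, CMT-290 and CMT-332. The carcinosarcomas CMT-231, CMT-340 and CMT-577 had 169, 250 and 18.1 FPKM, the fibrosarcoma 182.5 and the spindle cell carcinoma 32.9. The simple carcinomas ranged from 0.0116 to 163 FPKM with a median of 3.19. All 8 rare tumors lay above that median and 4 of them above the highest simple carcinoma, with a log2 difference of 4.26 (standard error 0.726, adjusted p = 1.34e-05).

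Among the lower genes, ENSCAFG00000007251 fell the most. Its level was 0.914, 5.05 and 72.8 FPKM in the osteosarcomas CMT-009, CMT-290 and CMT-332, 3.39 in the fibrosarcoma and 4.52 in the spindle cell carcinoma. In the carcinosarcomas CMT-231, CMT-340 and CMT-577 it was 109, 356 and 346 FPKM. The simple carcinomas ranged from 10.0 to 2926 FPKM with a median of 792. Thus 4 rare tumors lay below every simple carcinoma, and the carcinosarcomas lay in the lower part of the simple carcinoma range (log2 difference -4.63, standard error 0.631, adjusted p = 1.28e-07).

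ENSCAFG00000023647 showed the same 4 tumors at the bottom. It had 4.50 FPKM in CMT-009, 10.5 in CMT-290, 6.68 in the fibrosarcoma and 1.27 in the spindle cell carcinoma, all below the lowest simple carcinoma at 60.5. The osteosarcoma CMT-332 had 324 FPKM, and the carcinosarcomas CMT-231, CMT-340 and CMT-577 had 659, 337 and 1731. The simple carcinomas had a median of 1262 and a highest value of 4808. CMT-577 was the single rare tumor above the simple carcinoma median, and the log2 difference was -4.39 (standard error 0.568, adjusted p = 3.57e-08).

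**Figure D1:**
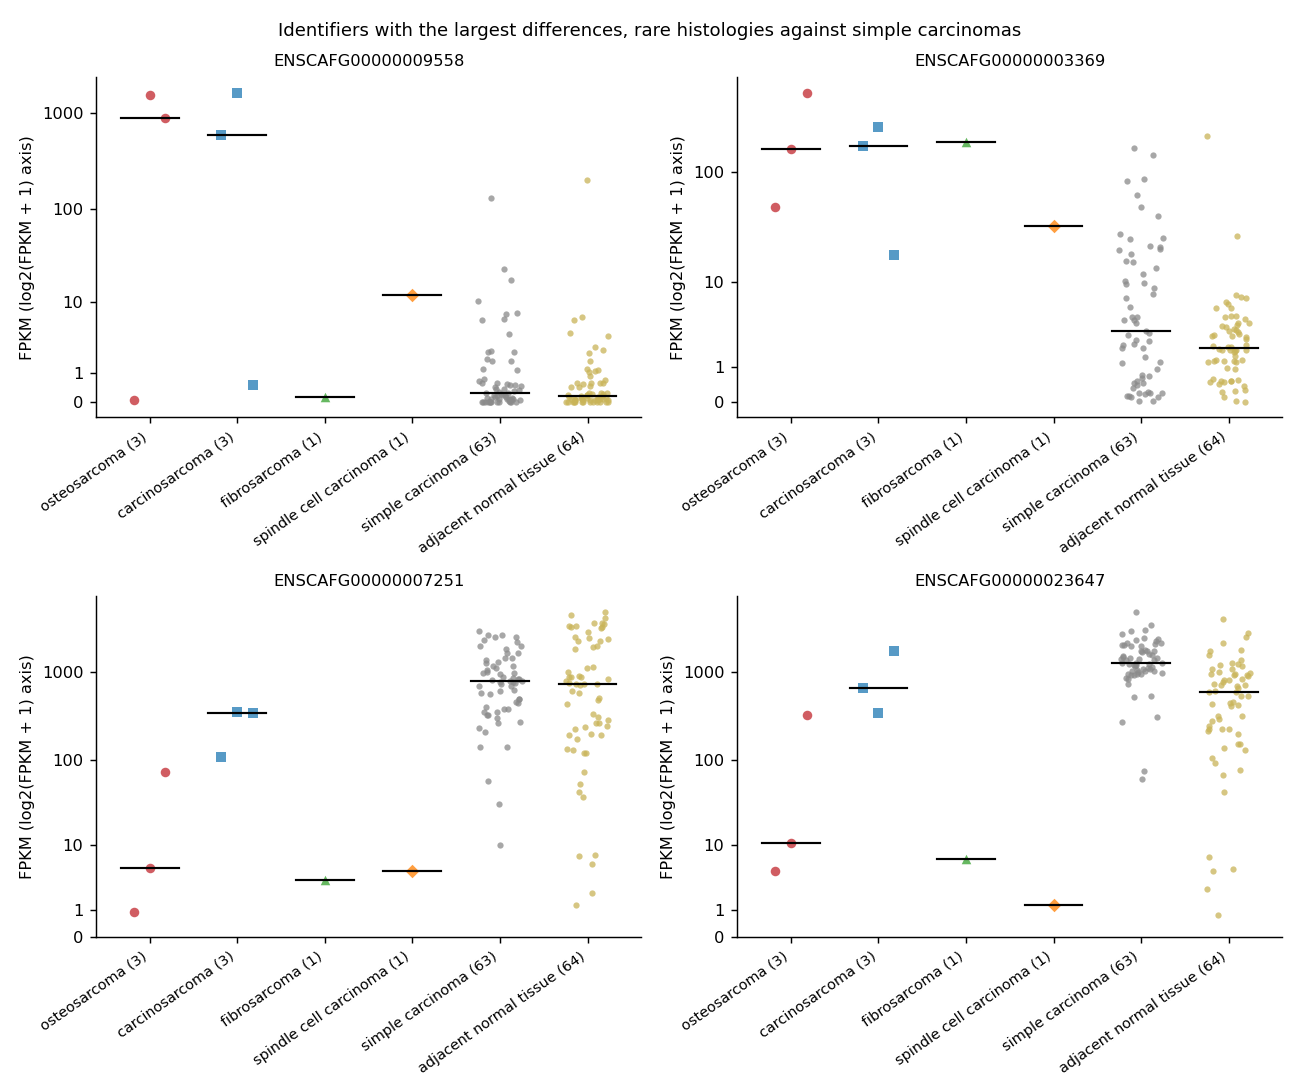
FPKM of the 2 identifiers with the largest increase (top) and the 2 with the largest decrease (bottom) in the rare histologies, on a log2(FPKM + 1) axis. Each point is 1 library, black lines are medians, and numbers of libraries stand in parentheses. The osteosarcoma at 0.0428 FPKM in the first panel is CMT-009, and in both lower panels the carcinosarcomas lie above the fibrosarcoma and the spindle cell carcinoma.

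No sequencing batch is given, and the surgery year was the closest split in the labels. It was confounded with histology. The tumors of 2016 were the osteosarcoma CMT-009, the fibrosarcoma and the spindle cell carcinoma, and those of 2017 were the other osteosarcomas and the carcinosarcomas. Within 2016 (3 rare tumors against 14 simple carcinomas) 374 genes were higher and 398 lower. Within 2017 (5 against 43) 259 genes were higher and 89 lower. The log2 difference of ENSCAFG00000009558 was 7.13 within 2017 (adjusted p = 2.01e-07) and 0.79 within 2016, where it was not called (adjusted p = 0.539). ENSCAFG00000003369 was higher in both years, by 4.16 in 2016 (adjusted p = 0.0338) and 4.48 in 2017 (adjusted p = 0.00124). ENSCAFG00000007251 was lower in both, by -6.99 in 2016 (adjusted p = 4.49e-05) and -3.16 in 2017 (adjusted p = 0.00754). ENSCAFG00000023647 was also lower in both, by -7.70 in 2016 (adjusted p = 1.6e-05) and -2.20 in 2017 (adjusted p = 0.0133). Whether the years differ was not tested, and year and histology cannot be told apart here. With the year as a covariate over all 71 tumors, 439 genes were higher and 530 lower.

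To see how far each rare tumor shared the pattern of the other 7, the comparison was repeated without it, and its level was then read on the genes called without it. The level is the median over those genes of log2(FPKM + 1), relative to the median of the simple carcinomas. On the higher genes the osteosarcomas CMT-009, CMT-290 and CMT-332 had 1.82, 2.44 and 1.83. The carcinosarcomas CMT-340 and CMT-231 had 1.54 and 1.32, and the fibrosarcoma 1.39. These 6 tumors exceeded all 63 simple carcinomas, which ranged from -0.80 to 1.10 when treated in the same way. The spindle cell carcinoma had 0.36, a level exceeded by 14 simple carcinomas, and CMT-577 had -0.16, exceeded by 43.

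The lower genes ordered the tumors in another way. CMT-009 and CMT-290 had -2.69 and -2.68, the fibrosarcoma -2.57 and the spindle cell carcinoma -1.94, all below the lowest simple carcinoma at -1.59. CMT-332 had -1.37, with 1 simple carcinoma below it, and the carcinosarcomas CMT-340, CMT-231 and CMT-577 had -1.06, -0.20 and 0.01, with 3, 20 and 27 simple carcinomas below them. The carcinosarcomas CMT-231 and CMT-340 therefore carried the raised genes at a level beyond the simple carcinomas while their lowered genes stayed within the simple carcinoma range. The spindle cell carcinoma showed the reverse arrangement, and CMT-577 was inside the simple carcinoma range on both. Of the genes called without each tumor, CMT-290 was above the simple carcinoma median for 98.1% of the higher and below it for 100% of the lower ones. CMT-577 was so for 34.1% and 49.6%. Over all genes tested, CMT-290 was above that median for 39.7% and below it for 58.7%. The shares of CMT-577 over all genes were 39.9% and 58.5%. Single simple carcinomas reached up to 90.3% on the higher and 88.8% on the lower genes called without them.

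**Figure D2:**
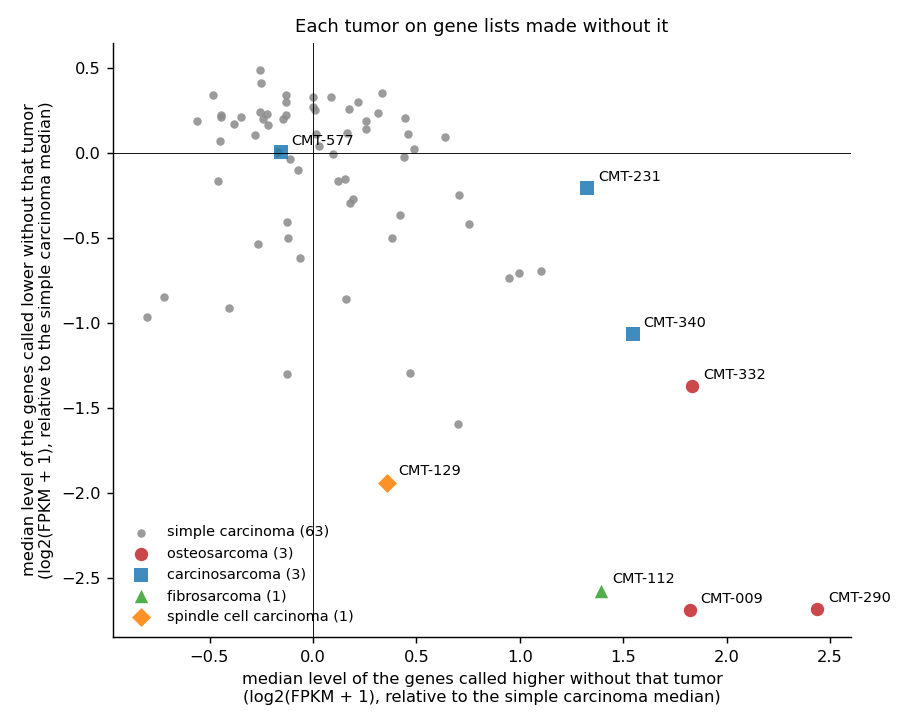
Level of each tumor on the genes called higher (horizontal) and lower (vertical) when that tumor was left out, as the median log2(FPKM + 1) relative to the simple carcinoma median. Gray points are the 63 simple carcinomas and colored symbols the 8 rare tumors; CMT-577 lies among the simple carcinomas at -0.16 and 0.01, and CMT-290 lies farthest to the right at 2.44.

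The number of genes outside the whole range of the simple carcinomas, counted over all 14519 genes, also differed widely between the rare tumors. CMT-009 had 613 genes above and 811 below every simple carcinoma, CMT-290 had 497 and 476, and CMT-332 had 328 and 77. The fibrosarcoma had 563 above and 515 below, and the spindle cell carcinoma 358 and 394. The carcinosarcomas had more genes above than below the range, with 357 and 32 in CMT-340, 178 and 74 in CMT-231, and 32 and 17 in CMT-577. A simple carcinoma had a median of 168 genes above and 42 below all other simple carcinomas, with ranges of 11 to 933 and 3 to 3868. Single simple carcinomas thus reached larger numbers than any rare tumor, and 4 of them had more genes above the range than CMT-009. CMT-686 was below all other simple carcinomas for 3868 genes and CMT-774 for 2568. Their libraries had a median of 1.93 and 2.79 FPKM, against 6.93 as the median of the simple carcinomas. Of the reads of CMT-774, 66.6% mapped. These libraries set the lower edge of the range for those genes, and the counts below the range were not repeated without them.

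**Figure D3:**
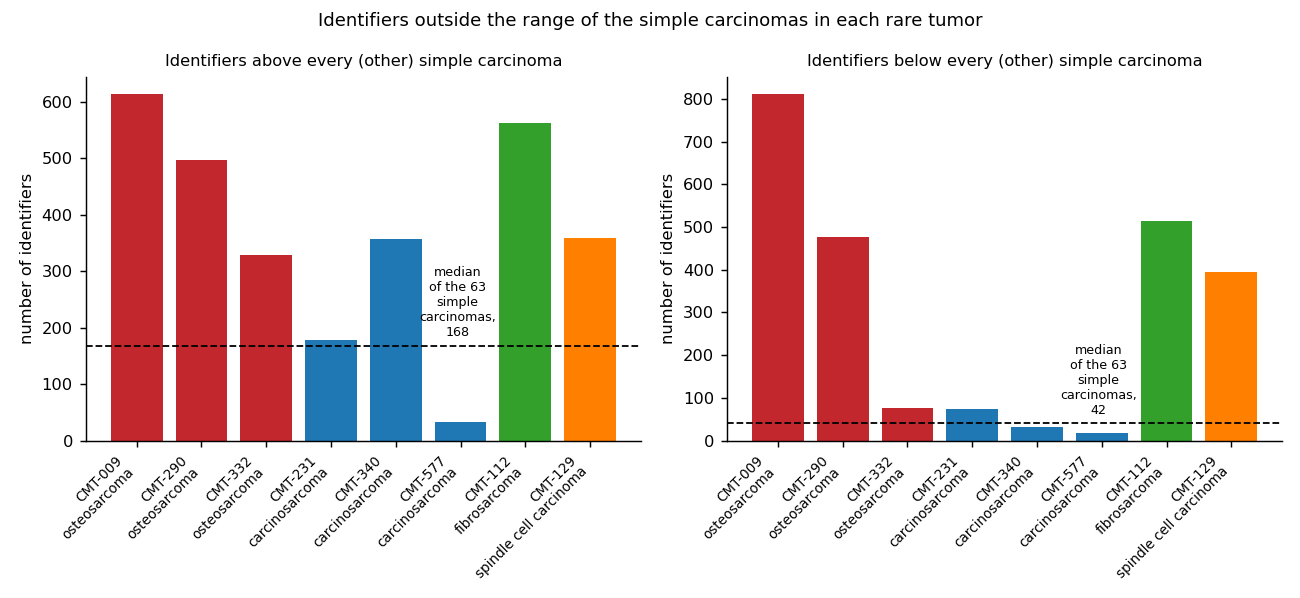
Number of identifiers per rare tumor that lie above (left) or below (right) every simple carcinoma, of 14519 tested. Dashed lines mark the median number for the 63 simple carcinomas, each set against the other 62; the bars of CMT-577 (32 and 17) are the lowest in both panels.

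Whole profiles were compared by correlation. The median Pearson correlation of a simple carcinoma with the other simple carcinomas had a median of 0.863 over the 63 tumors (lowest 0.703, highest 0.894), across 14519 genes on the log2 scale. The osteosarcomas CMT-009, CMT-290 and CMT-332 had median correlations with the simple carcinomas of 0.767, 0.782 and 0.833, the fibrosarcoma 0.772 and the spindle cell carcinoma 0.806. The carcinosarcomas CMT-231, CMT-340 and CMT-577 had 0.863, 0.853 and 0.883. Correlations between the osteosarcomas were 0.849 to 0.902, and those between the carcinosarcomas 0.864 to 0.888. The closest pair of the 8 was the osteosarcoma CMT-332 and the carcinosarcoma CMT-340 (0.911), and the farthest was CMT-577 and the fibrosarcoma (0.760). These coefficients were high throughout, and which genes raise them was not tested.

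The osteosarcomas and the carcinosarcomas were then each compared with the simple carcinomas, which both comparisons share. In the 3 osteosarcomas 591 genes were higher (4.07% of the genes tested) and 625 lower (4.3%), together 8.38%. Among the genes called higher, 101 had all 3 osteosarcomas above all 63 simple carcinomas, and among those called lower, 30 had all 3 below. Over all genes tested, 102 (0.703%) and 30 (0.207%) had such a separation. In the 3 carcinosarcomas 32 genes were higher and 0 lower, 0.22% of the genes tested. The higher genes include ENSCAFG00000026076 and ENSCAFG00000021062, which had a mean of 0 FPKM in the simple carcinomas and were not above 0 in every carcinosarcoma. At an unadjusted p under 0.05, 423 of the 14519 genes were higher and 83 lower in the carcinosarcomas, of which 252 and 28 passed the fold threshold. A fraction of 0.05 of the genes would pass this p where none differs, and the counts together lie below it. One gene (0.00689%) had all 3 carcinosarcomas above all 63 simple carcinomas.

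Both counts moved with single tumors. Without CMT-290 the osteosarcomas gave 546 calls and without CMT-009 594, against 1158 without CMT-332. Without CMT-577 the carcinosarcomas gave 106 calls, all higher, and without CMT-231 or CMT-340 they gave 6 and 3. With the 20 simple carcinomas of grade 3 alone 12 genes were called in the carcinosarcomas. Quantile normalization, which forces the libraries to one distribution, moved the median of all genes in the osteosarcomas from -0.14 to -0.01 and their calls from 591 higher and 625 lower to 815 and 566.

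On the genes named above, ENSCAFG00000009558 was higher by 5.93 in osteosarcomas (standard error 1.10, adjusted p = 6.89e-05) and by 5.94 in carcinosarcomas (standard error 1.10, adjusted p = 0.000716), both on the log2 scale. These standard errors also rest on the pooled spread, mostly that of the simple carcinomas. The carcinosarcomas themselves ranged from 0.499 to 1648 FPKM for this gene, and the osteosarcomas from 0.0428 to 1554. ENSCAFG00000003369 was higher by 4.79 in osteosarcomas (adjusted p = 0.0027), and its difference was 4.03 in carcinosarcomas (adjusted p = 0.198). ENSCAFG00000007251 was lower in osteosarcomas, with a log2 difference of -6.14 (adjusted p = 4.23e-07), and had -1.49 in carcinosarcomas (adjusted p = 1). ENSCAFG00000023647 was lower in osteosarcomas, with -5.48 (adjusted p = 9.64e-09), and had -0.75 in carcinosarcomas (adjusted p = 1).

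A direct test of osteosarcomas against carcinosarcomas called 21 genes higher and 30 lower in the osteosarcomas, 0.351% of the genes tested. At an unadjusted p under 0.05, 378 genes were higher and 645 lower. The groups of 3 did not overlap in 15 of the 21 and 22 of the 30 called genes, and over all genes tested in 604 (4.16%) above and 1676 (11.5%) below. The median of all genes in this comparison was -0.12, and after quantile normalization, when it was 0.04, the genes without overlap numbered 1265 above and 940 below, with 34 calls higher and 29 lower. The test borrows the spread of the 63 simple carcinomas, and with the 6 tumors alone it called 0 genes. The lower calls nearly vanished when either of 2 osteosarcomas was left out, with 7 higher and 1 lower without CMT-290 and 20 higher and 3 lower without CMT-009. Without CMT-577 the calls were 10 higher and 9 lower, without CMT-231 33 and 17, without CMT-332 37 and 85, and without CMT-340 32 and 59. A pseudocount of 0.1 in place of 1 gave 8 higher and 109 lower.

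Of the genes lower in osteosarcomas, ENSCAFG00000023647 had a log2 difference of -4.73 (standard error 0.942, adjusted p = 0.00297). Its highest osteosarcoma (324 FPKM) lay just below its lowest carcinosarcoma (337 FPKM), while the remaining osteosarcomas were at 4.50 and 10.5. It was no longer called without CMT-009 (adjusted p = 0.198), without CMT-290 (adjusted p = 0.115) or without CMT-577 (adjusted p = 0.123). ENSCAFG00000017018, selected by the same rule, was listed at 0 in all 3 osteosarcomas and at 6329, 4054 and 32.3 FPKM in the carcinosarcomas CMT-231, CMT-340 and CMT-577. The fibrosarcoma had 1477 FPKM of it, the spindle cell carcinoma 110, and the simple carcinomas 2.04 to 1902 with a median of 47.2. The 3 osteosarcomas and the adjacent normal tissue of the osteosarcoma dog CMT-290 were the 4 libraries with a 0 among all 222. Of the 30 lower genes, 4 were listed at 0 in all 3 osteosarcomas, and whether such values are failed estimates was not tested. Among them, ENSCAFG00000026076 and ENSCAFG00000021062 also had a mean of 0 FPKM in the simple carcinomas. Their means in the carcinosarcomas were 5412 and 183 FPKM, yet not every carcinosarcoma lay above 0. These calls therefore show no loss in osteosarcomas relative to simple carcinomas.

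Of the genes higher in osteosarcomas, ENSCAFG00000012731 had 17.5, 51.6 and 17.4 FPKM in CMT-009, CMT-290 and CMT-332 and 0.552, 1.69 and 1.10 in the carcinosarcomas CMT-231, CMT-340 and CMT-577. With a standard error of 0.744, its log2 difference reached 3.66 (adjusted p = 0.00397), and it was called neither without CMT-290 (adjusted p = 0.119) nor with a pseudocount of 0.1 (adjusted p = 0.187). Its highest level among the 8 tumors was in the spindle cell carcinoma, with 453 FPKM, and the fibrosarcoma had 0.454. The simple carcinomas had a median of 0.239 and a highest value of 25.6.

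ENSCAFG00000030721 separated 2 of the 3 osteosarcomas. It had 329 FPKM in CMT-290 and 21.6 in CMT-332, but 0.0460 in CMT-009. The carcinosarcomas had 2.14 (CMT-231), 0.144 (CMT-340) and 0.0898 FPKM (CMT-577), and 62 of the 63 simple carcinomas were under 1 FPKM, the highest being at 4.84. The groups overlapped through CMT-009, whereas the other osteosarcomas lay above every simple carcinoma. High levels also occurred outside these histologies. The highest were 174.7 FPKM in a complex carcinoma, 88.7 in a benign mixed tumor and 25.5 in a carcinoma in benign mixed tumor, each above CMT-332. Most tumors of these groups were under 1 FPKM (34 of 36, 6 of 8 and 12 of 15). The log2 difference between osteosarcomas and carcinosarcomas was 3.65 (standard error 0.645, adjusted p = 0.000903).

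**Figure D4:**
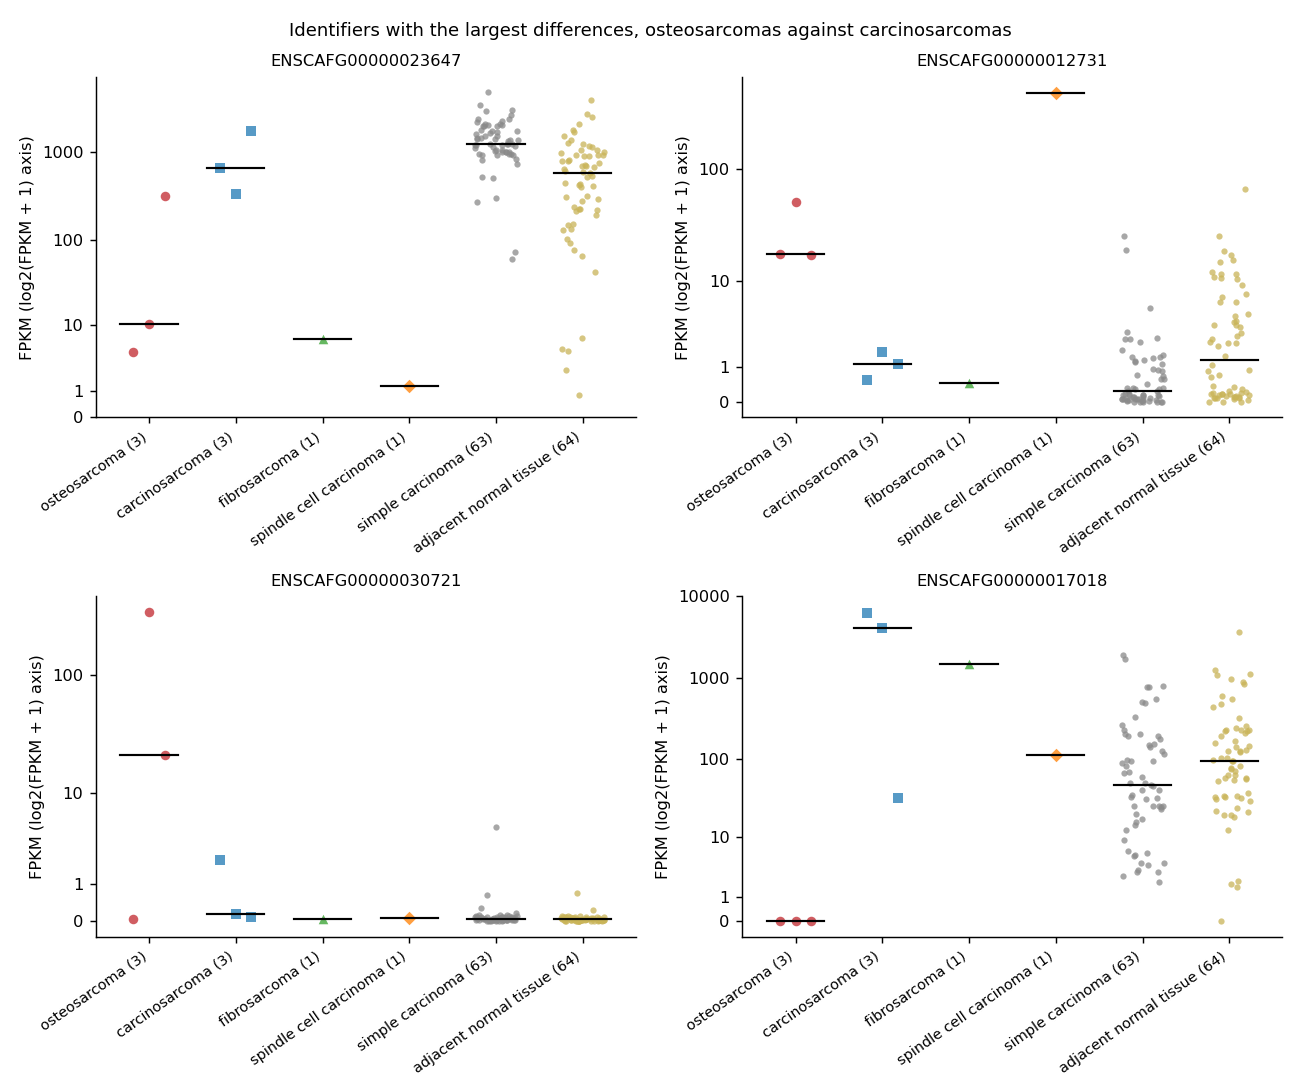
FPKM of the 4 identifiers selected between osteosarcomas and carcinosarcomas, on a log2(FPKM + 1) axis, with the other tumors and the adjacent normal tissues for reference. Each point is 1 library and black lines are medians. In the last panel the 3 osteosarcomas and 1 normal tissue are listed at 0, and in the panel of ENSCAFG00000012731 the spindle cell carcinoma at 453 FPKM lies above the 3 osteosarcomas.

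The genes called between rare histologies and simple carcinomas were next followed in the tumors that took no part in the comparison. Mixed tumors contain cartilage or bone beside epithelium by their histological definition, and complex tumors contain proliferating myoepithelial cells without them. Between 23 mixed and 49 complex tumors, with malignant or benign as a covariate, limma called 0 of 14507 genes (0%), and 345 were higher and 2618 lower in mixed tumors at an unadjusted p under 0.05. Of the 439 genes higher in the rare tumors, 420 were tested here and 0 were called, with 5 higher and 57 lower at an unadjusted p under 0.05. Their median log2 difference was -0.16, against -0.11 over all genes tested. Of the 493 lower genes 0 were called, with a median of -0.23. Among malignant tumors alone, 5 genes were higher and 32 lower in mixed tumors.

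The level of these genes in every library, as the median log2(FPKM + 1) relative to the simple carcinomas, set most other tumors apart from the osteosarcomas. On the 439 higher genes the osteosarcomas had 1.87 to 2.30. The median was 0.31 in 36 complex carcinomas, 0.17 in 13 complex adenomas, 0.14 in 15 carcinomas in benign mixed tumors, 0.12 in 8 benign mixed tumors and 0.08 in 14 simple adenomas. These groups follow the clinical table; the labels call 3 of the 36 complex carcinomas complex adenoma and 2 of the 15 carcinomas in benign mixed tumors benign mixed tumor. Single tumors of these groups reached 1.84 (a complex carcinoma) and 1.82 (a benign mixed tumor). On the 493 lower genes the osteosarcomas had -2.59 to -1.48, and the medians of the other groups were between -0.15 and -0.04. Single tumors lay inside the osteosarcoma range here. They were the benign mixed tumor CMT-695 (-2.29), the complex carcinoma CMT-153 (-2.23) and the carcinomas in benign mixed tumors CMT-756 (-1.99) and CMT-063 (-1.94). The lowest simple carcinoma, at -1.57, was also inside it. The 64 adjacent normal tissues had a median of 0.28 on the higher and -0.47 on the lower genes. Because the genes were chosen on the rare tumors, the values of those tumors in this paragraph are a description.

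**Figure D5:**
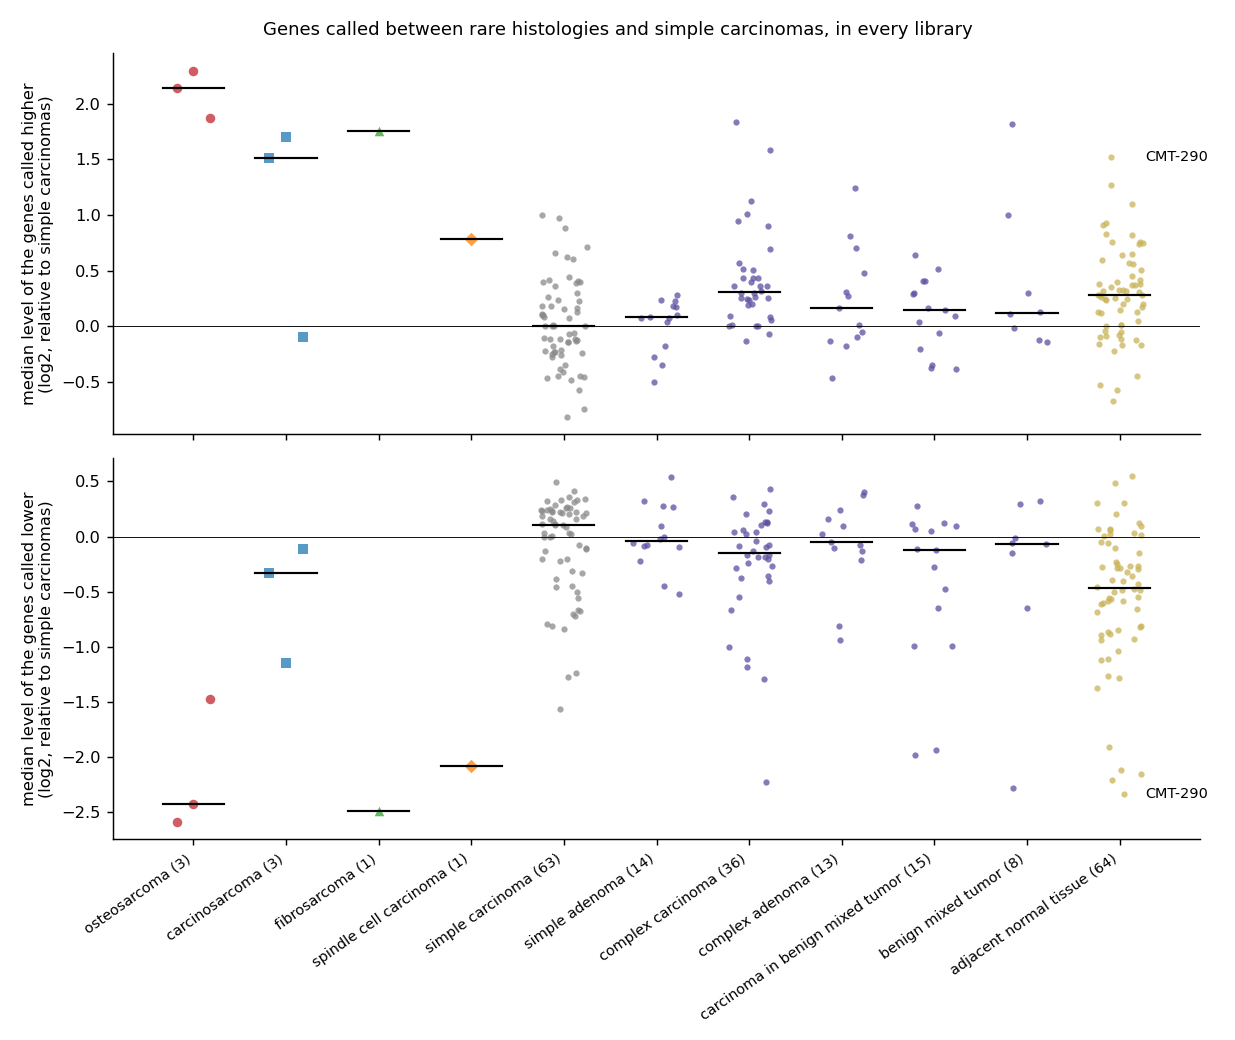
Median level of the 439 genes called higher (top) and the 493 called lower (bottom) in the rare histologies, in each library, as log2(FPKM + 1) relative to the simple carcinoma median. Each point is 1 library and black lines are group medians. The adjacent normal tissue of CMT-290, marked in both panels, is at 1.52 and -2.34 and is the most extreme of the 64 normal tissues in each.

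Normal tissue of the same dog was available for 3 rare tumors, the osteosarcoma CMT-290 and the carcinosarcomas CMT-231 and CMT-340. The normal tissue of CMT-290 had 1.52 on the higher and -2.34 on the lower genes, beside 2.30 and -2.43 in the tumor of the same dog. On the lower genes 4 other normal tissues came near it, those of CMT-278 (-2.21), CMT-217 (-2.16), CMT-072 (-2.12) and CMT-201 (-1.91), and CMT-217 was also high on the higher genes (1.27). In whole-profile correlation with the median normal tissue, 9 of the 64 lay lower than that of CMT-290 (0.894). The normal tissues of CMT-231 and CMT-340 were at 0.17 and 0.38 on the higher genes and -0.55 and -0.86 on the lower genes. ENSCAFG00000023647 had 0.784 FPKM in the normal tissue of CMT-290, the lowest of all 64, and 2.44 to 6.94 in the 4 near it, against 215 and 197 in those of CMT-231 and CMT-340. ENSCAFG00000009558, in contrast, was at 0.587 FPKM in the normal tissue of CMT-290 and at 1554 in its tumor. The normal tissues of CMT-231 and CMT-340 had 0.0350 and 6.04 FPKM of this gene, and their tumors 596 and 1648.

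The difference between a tumor and its own normal tissue was then compared between these 3 dogs and 21 dogs with simple carcinomas. It was greater in the rare tumors for 187 genes (1.27%) and smaller for 6 (0.0409%), together 1.31% of the 14682 genes tested, and 2164 and 545 genes had an unadjusted p under 0.05. All 3 dogs lay above all 21 in 251 genes (1.71%) and below all 21 in 14 (0.0954%). The median of all genes in this comparison was 0.19 and the calls were mostly in one direction. Scaling the libraries by median ratio moved that median to 0.05 and left 177 calls higher and 14 lower. ENSCAFG00000009558 differed by 8.58 on the log2 scale (standard error 0.914, adjusted p = 1.05e-06) and ENSCAFG00000003369 by 5.10 (standard error 1.23, adjusted p = 0.0328). The latter call was lost in 7 of 14 alternatives, among them leaving out any 1 of the 3 dogs (adjusted p = 0.0978 to 0.147). ENSCAFG00000007251 had a log2 difference of -2.25 (adjusted p = 0.42) and ENSCAFG00000023647 one of 0.45 (adjusted p = 0.821). ENSCAFG00000030721, named for the osteosarcomas, differed by 3.23 (adjusted p = 0.0349), a call lost in 5 of 13 alternatives (adjusted p = 0.0504 to 0.155). Without CMT-290 its mean was too low for it to be tested. The number of calls fell to 92 without CMT-290, 68 without CMT-231 and 65 without CMT-340, to 56 with the mapping rate as a covariate, and to 8 among genes with a mean of at least 5 FPKM. Without the pairing of tissues by dog, an interaction test over the 48 libraries called 61 genes, all greater in the rare tumors.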

How the data were processed

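RNA was enriched by poly(A) selection and sequenced from tumors and adjacent normal tissue. The authors mapped reads to CanFam3.1 with TopHat2 2.0.9 and deposited FPKM values from Cufflinks 2.1.1, tools and build as in the processing notes of the submitters. No scaling between libraries is stated. As a check of the unit, low values were multiplied by mapped reads, and 72.1% of 69063 products came within 0.1 of whole steps of the lowest one (20% if spread evenly). Duplicate values (17 identifiers) were kept, and no pair of libraries was identical.

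Differences were fitted with limma 3.58.1 (R 4.3.3, intensity trend) on log2(FPKM + 1), for identifiers whose mean reached 0.5 FPKM, two-sided, with Benjamini-Hochberg adjustment. Osteosarcomas and carcinosarcomas were tested in 1 fit of 5 groups over 71 tumors. Named identifiers are the top 2 by log2 difference, upward and downward, of the called genes that reached a mean of 5 FPKM in the higher group, for all rare tumors and for osteosarcomas against carcinosarcomas. The members, tests and lists were chosen with earlier results of these data known. Marker lists and sequences were not used, since the identifiers carry no names. In the 24 dogs with both tissues, tumor and normal come from 1 animal per the labels, and their deviations from group means correlated at 0.244 on average (-0.178 to 0.696), so the dog was the block. The fits were tested on simulated data. Of 67 log2 changes of 1.5, 58 were recovered for all rare tumors against simple carcinomas. For osteosarcomas against carcinosarcomas 23 of 67 were recovered, and for tumor minus own normal 30 of 67. False calls in these runs numbered 3, 11 and 6. The simulation gave the rare tumors the spread of the comparison tumors, mainly simple carcinomas, and no pairing by dog. It therefore does not show how the fits perform on the real spread. Permutation tests (scipy 1.17.1) used 100000 resamples.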

Additional observations from a re-analysis of the deposited data

Results flagged for a closer look

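Osteosarcomas and carcinosarcomas were each compared with the simple carcinomas, and a direct test asked whether these effects differed. It called 21 identifiers higher and 30 lower in osteosarcomas, 0.351% of the 14519 tested. Of the 30, 4 were listed at 0 in all 3 osteosarcomas. With the 6 tumors alone the test called 0. Among the named identifiers, ENSCAFG00000023647 differed by -4.73, ENSCAFG00000012731 by 3.66 and ENSCAFG00000030721 by 3.65 on the log2 scale. No value of the 8 rare tumors lay far enough from the other 7 to be singled out by Dixon's criterion, which was applied to ages, depths, list levels and the 7 named identifiers. The criterion weighs the gap between an extreme value and its nearest neighbor. It cannot single out a value where several tumors share an extreme, as the 3 osteosarcomas at 0 for ENSCAFG00000017018, and does not show that the tumors are alike.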

How the results depend on the processing

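The count of called genes for all rare tumors (932) stayed within 1.5 times in 15 of 18 alternatives. The exceptions, each with fewer tumors, were 172 without the osteosarcomas, 1488 without the carcinosarcomas and 348 within surgery year 2017, and leaving out single tumors gave 637 to 1248. ENSCAFG00000003369, ENSCAFG00000007251 and ENSCAFG00000023647 stayed called in all 26 alternatives of that comparison and ENSCAFG00000009558 in 25, all but surgery year 2016 alone. The counts from 3 tumors moved more. Carcinosarcomas against simple carcinomas (32) gave 15 with a pseudocount of 0.1, 50 without a filter on low values, 7 at a mean of at least 5 FPKM and 12 against grade 3 tumors. Osteosarcomas against carcinosarcomas (51) gave 117, 120 and 32 under the first 3 of these settings and 0 with the 6 tumors alone. Tumor minus own normal (193) gave 118 with a pseudocount of 0.1, 8 at a mean of at least 5 FPKM and 56 with the mapping rate as a covariate. Without the replicate block by dog it gave 61. Mixed against complex tumors (0) gave 1 with a pseudocount of 0.1 and 37 among malignant tumors. Leaving out 1 tumor at a time gave 546 to 1158 for osteosarcomas, 3 to 106 for carcinosarcomas, 8 to 122 between them and 65 to 92 for tumor minus own normal. The difference of ENSCAFG00000023647 in the last comparison, 0.45, lay between -0.0492 (without CMT-290) and 0.907 (without CMT-340) when single dogs were left out, reached 1.16 with the mapping rate as a covariate, and was not called in any of 14 alternatives. For other moves the cause was not tested. The identifiers at 0 despite a high median (74), a covariate-free fit of mixed tumors, the fit without carcinosarcomas and the single years were chosen as alternatives after seeing the data. Read numbers per gene are unknown, so the depth behind a value gives no interval.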

Other observations

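A pair of tumors outside the comparison resembled the osteosarcomas on the genes called between rare histologies and simple carcinomas. The complex carcinoma CMT-153 had a median level of 1.84 on the higher and -2.23 on the lower genes (log2, relative to the simple carcinomas), and the benign mixed tumor CMT-695 had 1.82 and -2.29. The complex carcinoma CMT-301 had 1.58 on the higher genes with -0.55 on the lower ones, an arrangement also seen in the carcinosarcoma CMT-231 at 1.52 and -0.33. After the normal tissue of CMT-290, the highest of the normal tissues on the higher genes was that of CMT-217, a dog with a complex carcinoma, at 1.27 and -2.16. These libraries were singled out after their values were seen.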
